A study of Homo sapiens with 40 samples.

Results

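The genes described here are 9 transcription factors that shape mammary and other epithelial lineages, *GATA3*, *FOXA1*, *ESR1*, *SPDEF*, *ELF3*, *ELF5*, *EHF*, *KLF4* and *KLF5*, out of the 60708 genes in the count tables. They were chosen by symbol, with their RNA counts in all 24 RNA-seq libraries in view. Every value of these 9 genes is therefore a description, given without a p-value, and p-values are printed only for genes of other lists. Those lists were also chosen with earlier results of these data known, and the genes named are called ones with large changes. Their p-values are thus descriptions too. The study asked how TGFβ acts on breast cells at different stages of transformation, and its RNA-seq libraries fall into 8 groups of 3. The 16 ATAC-seq samples of the series were not analysed here.

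MI denotes MCF-10A, an immortalised human mammary epithelial line that does not form tumours, and MII denotes its HRAS-transformed derivative. Both were grown as 3D spheres in ultra-low attachment plates, either untreated (MI Ctrl, MII Ctrl) or stimulated with TGFβ1 at 2.5 ng/ml for 16 h (MI TGFβ, MII TGFβ). MDA-MB-231 is a human triple-negative breast cancer line, grown as monolayers in serum-containing medium. Its untreated cells form the WT group, and cells edited with a Cas9 ribonucleoprotein against the start of *SNAI2*, the gene of the repressor SLUG, form the SLUG KO group. Edited cells were expanded from single cells, and how many clones the 3 SLUG KO libraries represent was not given in the sources used here. Unedited MDA-MB-231 cells were also transfected with a scrambled control siRNA (Csi) or with siRNAs against *SMAD2*, *SMAD3* and *SMAD4* (siSMAD2/3/4). MI and MII cells share an origin, and each of the 3 lines is a single established line, so a difference between lines is a difference between these cultures. The labels do not say whether the 3 libraries of a group came from separate cultures, so the errors cover only the spread between these libraries.

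GATA3, FOXA1 and the estrogen receptor ESR1 form the core of the luminal hormone-responsive program of the mammary gland, in which FOXA1 opens chromatin for the receptor. SPDEF, ELF3, ELF5 and EHF are the epithelium-restricted branch of the ETS family: SPDEF is known from secretory and luminal cells, ELF3 and EHF from differentiated epithelia, and ELF5 from the alveolar cells that make milk. KLF4 and KLF5 are zinc-finger factors of epithelial barrier tissues, KLF4 linked to differentiation and KLF5 to proliferating progenitors. TGFβ signals through SMAD2, SMAD3 and SMAD4, and SLUG represses epithelial genes through E-boxes.

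Promoter sequences are shown for *FOXA1*, *SPDEF* and *KLF4*, because the comparisons with TGFβ and in MDA-MB-231 turn on these genes. Each run is the RefSeq sequence (GRCh38.p14, minus strand, 5′ to 3′) that ends at the annotated transcription start, with capitals marking CACCTG, the E-box bound by SLUG-type repressors, or CAGAC, the short SMAD-binding box, on either strand. The *FOXA1* and *KLF4* windows lie within the span of the longer GENCODE gene models, upstream of the RefSeq start. The windows are chr14:37595250-37595499, chr6:34556334-34556579 and chr9:107489770-107490019 in the order printed. The *SPDEF* run leaves out the last 4 of its 250 bases, which lie in an annotated untranslated exon, and its capitals start 81 bases before the start site.
FOXA1: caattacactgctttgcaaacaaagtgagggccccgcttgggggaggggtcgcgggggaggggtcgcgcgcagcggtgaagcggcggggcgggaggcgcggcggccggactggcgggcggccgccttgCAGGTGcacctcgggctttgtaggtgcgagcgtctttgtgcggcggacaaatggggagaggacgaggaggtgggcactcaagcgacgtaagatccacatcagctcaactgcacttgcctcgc
SPDEF: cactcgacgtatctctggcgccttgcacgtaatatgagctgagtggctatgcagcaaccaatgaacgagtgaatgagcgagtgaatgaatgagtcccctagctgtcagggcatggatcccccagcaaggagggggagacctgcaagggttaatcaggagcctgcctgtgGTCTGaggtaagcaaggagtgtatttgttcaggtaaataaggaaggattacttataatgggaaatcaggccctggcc
KLF4: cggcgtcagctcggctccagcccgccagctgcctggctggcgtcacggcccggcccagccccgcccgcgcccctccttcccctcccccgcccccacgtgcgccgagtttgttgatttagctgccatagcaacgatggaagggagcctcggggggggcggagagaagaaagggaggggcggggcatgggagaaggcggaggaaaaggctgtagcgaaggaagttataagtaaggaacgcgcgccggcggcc
In the gene models of the count tables (GRCh38), *FOXA1* (ENSG00000129514.8) spans chr14:37589552-37596059, *SPDEF* (ENSG00000124664.11) chr6:34537802-34556333 and *KLF4* (ENSG00000136826.15) chr9:107484852-107490482. The 9 genes have 21 such windows of 250 bases, since *GATA3*, *ESR1*, *EHF* and *KLF5* have several start sites. CACCTG occurred in 2 of the 21 windows, those of *FOXA1* and *ELF3*, and in 17.5% of all 35116 promoter windows. CAGAC occurred in 10 of the 21, belonging to *GATA3*, *ESR1*, *SPDEF*, *ELF3* and *EHF*, and in 13345 of the 35116 windows. The 2 motifs share no overlapping position in the printed runs, and a match to letters says nothing of binding.

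Between 14124688 and 38406952 fragments per library were counted on genes. Levels are given as CPM, the usual count-per-library measure after TMM scaling of the library totals, with 3 counts per library (0.0790 to 0.204 CPM) taken as the floor of detection, which covers counting error only. Replicates correlated over genes with Pearson's r of 0.984 to 0.994 in 7 groups. In the WT group, replicate 2 stood apart, with r of 0.957 and 0.952 to replicates 1 and 3, against 0.989 between these. The siRNA libraries came from another sequencing batch than the other 18 and were tested only against each other. Where their levels are set beside those of other groups, group and batch cannot be told apart. *HRAS* was 220 ± 4.09 CPM in MII Ctrl and 40.7 ± 1.01 in MI Ctrl (mean ± SD, n = 3). *SMAD2* was 24 ± 0.366 CPM in siSMAD2/3/4 and 90.5 ± 1.67 in Csi libraries, *SMAD4* 16.8 ± 1.11 and 55.4 ± 1.20, and *SMAD3* 165 ± 6.82 and 266 ± 6.00. *SNAI2* RNA was higher in libraries labelled SLUG KO (57.7, 63.5 and 64.3 CPM) than in WT (20.9, 30.2 and 33.7 CPM), and an RNA level does not show whether the protein was lost. The study states that its knockout clones were checked by digital PCR and immunoblotting. Of 8 mammary epithelial markers, all 8 averaged at least 1 CPM in MI-spheres, with a sum of 2805 to 2867 CPM in MI Ctrl and 1550 to 1599 in MII Ctrl. In WT MDA-MB-231, *KRT5* and *KRT6A* stayed below 0.1 CPM and the sum was 431 to 712 CPM, while 7 mesenchymal markers summed to 2796 to 3608 CPM against 82.6 to 85.1 in MI Ctrl. The leukocyte markers *CD3E* and *CD68* averaged below 0.1 CPM in every group. *PTPRC*, the third leukocyte marker, averaged 0 to 0.0846 CPM in the 4 sphere groups and 0.129 to 0.395 CPM in the 4 MDA-MB-231 groups. The endothelial markers *CDH5* (22.2 ± 0.782 CPM) and *PECAM1* (9.79 ± 0.955 CPM) were counted in MI Ctrl, and *PECAM1* was 10.8-fold higher in MII Ctrl. Of the stromal markers, *DCN* was 11.7 ± 0.571 CPM in MI Ctrl. In WT, *COL1A2* was 46.6 ± 17.0 and *PDGFRB* 14.7 ± 4.98 CPM. Why these lines held such transcripts was not tested.

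**Figure D1:**
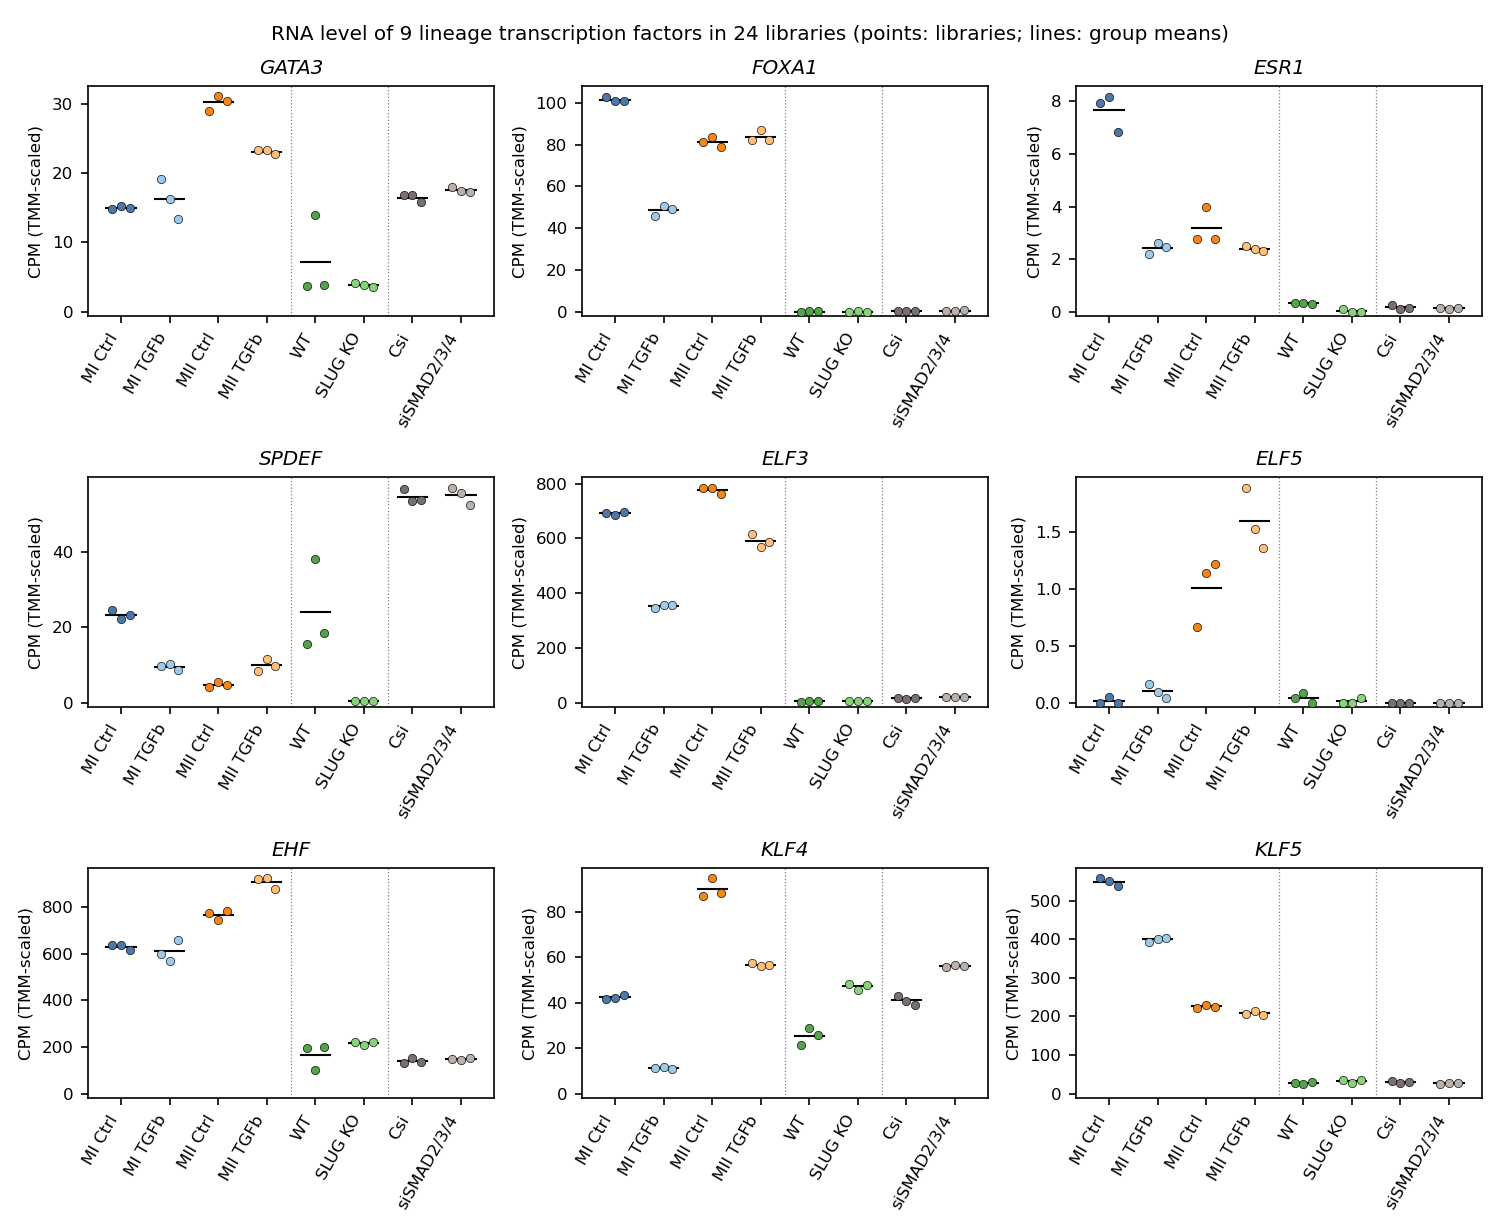
CPM of each gene (linear axes from 0) in the 24 libraries, with points for libraries, lines for means of 3, and dotted lines between the spheres, the WT and SLUG KO libraries, and the siRNA batch. *FOXA1*, *ESR1*, *ELF3*, *EHF* and *KLF5* had higher means in each sphere group than in any MDA-MB-231 group. *GATA3*, *ELF5* and *KLF4* had their highest mean in an MII group. *SPDEF* was highest in the siRNA batch and near 0 in SLUG KO libraries, and WT replicate 2 was above the other WT libraries for *GATA3* and *SPDEF*.

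The level of each gene placed the groups in a different order. *FOXA1* ran from 101.7 ± 1.51 CPM in MI Ctrl over 83.9 ± 2.96 in MII TGFβ, 81.3 ± 2.61 in MII Ctrl and 48.5 ± 2.30 in MI TGFβ to 0.0457 to 0.479 CPM, as group means, in MDA-MB-231. The MII groups overlapped each other, and so did WT and SLUG KO. *ESR1* was 7.66 ± 0.709 CPM in MI Ctrl, 3.18 ± 0.694 in MII Ctrl, and 2.42 ± 0.205 and 2.40 ± 0.0962 in stimulated MI and MII, which overlapped. In MDA-MB-231 its group means were 0.0397 to 0.317 CPM. *GATA3* was highest in MII Ctrl (30.2 ± 1.08 CPM) and MII TGFβ (23.1 ± 0.368), while siSMAD2/3/4, Csi, MI TGFβ and MI Ctrl lay between 15.0 and 17.6 as means and WT and SLUG KO were lowest, at 7.17 ± 5.80 and 3.85 ± 0.235. In MDA-MB-231, *FOXA1* and *ESR1* were thus near the floor, and *GATA3* was counted 80 times or more in each library.

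Among the ETS factors, *ELF3* and *EHF* were the most abundant in spheres. *ELF3* was 777 ± 13.5, 692 ± 4.83, 591 ± 22.7 and 354 ± 7.43 CPM in MII Ctrl, MI Ctrl, MII TGFβ and MI TGFβ, without overlap between neighbours, and 4.81 to 21.1 CPM as group means in MDA-MB-231. *EHF* was 908 ± 27.5, 768 ± 19.6, 631 ± 11.0 and 610 ± 46.4 CPM in MII TGFβ, MII Ctrl, MI Ctrl and MI TGFβ, with overlap between the last pair, and 141 to 218 CPM as means in MDA-MB-231. *EHF* was thus the 1 ETS factor of the 4 above 100 CPM in all 12 MDA-MB-231 libraries. *SPDEF* had its highest means in siSMAD2/3/4 and Csi libraries (55 ± 2.29 and 54.6 ± 1.77 CPM, overlapping), followed by WT (24.1 ± 12.3), MI Ctrl (23.3 ± 1.20), MII TGFβ (9.92 ± 1.48), MI TGFβ (9.45 ± 0.791), MII Ctrl (4.71 ± 0.709) and SLUG KO (0.318 ± 0.00142). *ELF5*, which lies beside *EHF* on chromosome 11, was counted 10 to 34 times per library in MII and at most 3 times in any other library.

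The 2 KLF factors differed in which line held more of them. *KLF5* was 548 ± 10.2 CPM in MI Ctrl, 400 ± 5.26 in MI TGFβ, 226 ± 3.62 in MII Ctrl and 209 ± 5.35 in MII TGFβ, without overlap, and 26.9 to 32.8 CPM as means in MDA-MB-231, where neighbouring groups overlapped. *KLF4* was highest in MII Ctrl (90.1 ± 4.40 CPM) and lowest in MI TGFβ (11.2 ± 0.509), with all MDA-MB-231 groups between these means. Measured per length, as RPKM, the leading gene was *KLF5* in MI Ctrl (149 RPKM, with *ELF3* at 96.3 and *EHF* at 95.3) and *EHF* in MII Ctrl (116 RPKM, ahead of *ELF3*, with *KLF5* at 61.4). In WT cells *EHF* (25.1 RPKM) was followed by *SPDEF* (12.6), and in Csi libraries *SPDEF* (28.5 RPKM) led *EHF* (21.3). *ESR1* or *ELF5* was the lowest of the 9 in each group by this measure. *ELF3*, *GATA3*, *FOXA1* and *ESR1* overlap annotated genes on the opposite strand (*ELF3-AS1*, *GATA3-AS1*, *TTC6* and *SYNE1* among them), and since counting ignored the strand their counts are uncertain where exons overlap.

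TGFβ in MI-spheres addressed how untransformed mammary cells respond. *FOXA1*, *ESR1*, *SPDEF*, *ELF3* and *KLF4* fell, *KLF5* was lower by less than the fold threshold, and *EHF* and *GATA3* overlapped between the groups. Fold-changes come from fits that scaled only the libraries compared, so they can differ from ratios of the printed CPM, which were scaled over all 24 libraries. A gene was called when its adjusted p was under 0.05 and its absolute log2 fold-change above 1. By this rule 5 of the 9 genes were called lower and 0 higher, while over all 16863 genes tested 9.92% were called lower and 3.64% higher. *ELF5* was too low to be tested. The median log2 fold-change was -1.10 for the 8 genes tested and -0.02 for all genes.

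*FOXA1* stood at 100.8, 100.8 and 103.5 CPM in MI Ctrl and at 46.0, 49.0 and 50.6 CPM in MI TGFβ. Its log2 fold-change was -1.15 ± 0.058 (SE), which is 2.22-fold lower. *ESR1* fell from 6.85, 7.94 and 8.18 CPM to 2.19, 2.47 and 2.60 CPM (log2 fold-change -1.74 ± 0.15), on 40 to 58 counts per stimulated library. For both genes all stimulated libraries lay below all unstimulated ones. *GATA3* was 14.8, 14.9 and 15.3 CPM without and 13.4, 16.3 and 19.1 CPM with TGFβ, so the stimulated libraries lay on both sides of the unstimulated ones.

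*SPDEF* fell from 22.1, 23.3 and 24.5 CPM to 8.60, 9.60 and 10.2 CPM (log2 fold-change -1.38 ± 0.095). *ELF3* fell from 687, 692 and 696 CPM to 345, 358 and 358 CPM (-1.05 ± 0.049 on the log2 scale). Neither gene overlapped between the groups. The *ELF3* value lies close to the fold threshold: with all 18 libraries of the batch in 1 fit it was -0.97 and was not called. *EHF* was 618, 636 and 639 CPM without and 570, 599 and 661 CPM with TGFβ, and its log2 fold-change was -0.13 ± 0.052.

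*KLF4* had the largest fold-change of the 8 genes tested. It was 41.5, 42.3 and 43.5 CPM in MI Ctrl and 10.7, 11.4 and 11.7 CPM in MI TGFβ, 3.99-fold lower (log2 fold-change -2.0 ± 0.078). *KLF5* was 538, 550 and 558 CPM without and 394, 401 and 404 CPM with TGFβ (-0.54 ± 0.049). Both KLF factors were separated between the groups, and only the *KLF4* difference exceeded the fold threshold.

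Around these genes in MI-spheres, calls were few in each list of related factors. Of 10 other luminal and hormone transcription factors tested, 1 was lower and 0 higher, *XBP1*, a secretory-pathway factor (log2 fold-change -1.17 ± 0.053, adjusted p = 9.25e-14). Of 7 other epithelial-state factors, 1 was lower, the repressor of mesenchymal genes *OVOL1* (-1.01 ± 0.088, adjusted p = 4.52e-09). The 4 GATA, FOXA and estrogen receptor relatives tested included 1 lower gene, *GATA2* (-1.93 ± 0.41, adjusted p = 0.000401, at 2.12 CPM or less), whose value was -2.80 without MI TGFβ replicate 2 and -1.39 without MI TGFβ replicate 3. *XBP1* is thus the 1 abundant factor among these 3, at 231 ± 8.68 CPM in MI Ctrl. Among 13 ETS relatives, *ETV5* was higher (1.02 ± 0.12, adjusted p = 3.77e-07) and *ETV4* lower (-1.24 ± 0.13, adjusted p = 8.80e-08). Of 11 KLF relatives, *KLF2* was lower (-1.73 ± 0.22, adjusted p = 9.49e-07), and of 8 basal factors *TBX2* (-1.07 ± 0.29, adjusted p = 0.00363). The calls of *OVOL1*, *ETV5* and *TBX2* lay near the threshold: without 1 library their values ranged from -1.08 to -0.95, 0.95 to 1.10 and -1.41 to -0.83, and the calls were lost without MI TGFβ replicate 3 (all 3 genes), MI TGFβ replicate 1 (*TBX2*), MI Ctrl replicate 1 (*OVOL1*, *TBX2*), replicate 2 (*ETV5*) or replicate 3 (*OVOL1*). With all 18 libraries of the batch in 1 fit, *OVOL1* and *TBX2* lost their calls too. *OVOL1* also lost its call in DESeq2, and *ETV5* when at least 10 counts were required in every library. The list medians of these 6 lists were -0.85 to 0.09 against -0.02 over all genes. Of 13 luminal surface genes, the adhesion protein gene *EPCAM* was higher (1.07 ± 0.062, adjusted p = 6.89e-12) and the receptor gene *ERBB3* lower (-1.19 ± 0.051, adjusted p = 4.55e-14). The estrogen-responsive list had 1 lower gene of 7 tested, again *XBP1*.

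Beside these values, markers of cell state also moved in the stimulated MI libraries. Of 8 mammary epithelial markers 4 rose, led by the keratin genes *KRT6A* (log2 fold-change 2.61 ± 0.058, adjusted p = 6.70e-19) and *KRT5* (2.39 ± 0.052, adjusted p = 5.32e-19), and the sum of the list was 4953 to 5276 CPM. Of 7 mesenchymal markers 4 rose, among them *FN1*, fibronectin (2.16 ± 0.063, adjusted p = 7.01e-17), and their sum was 294 to 325 CPM. Of 3 stromal, immune and endothelial markers tested 1 fell, *CDH5* (-3.42 ± 0.12, adjusted p = 8.14e-16). Their part in the values of the 9 genes was not tested. In bulk RNA, fewer cells that express a gene and less RNA per cell cannot be told apart.

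**Figure D2:**
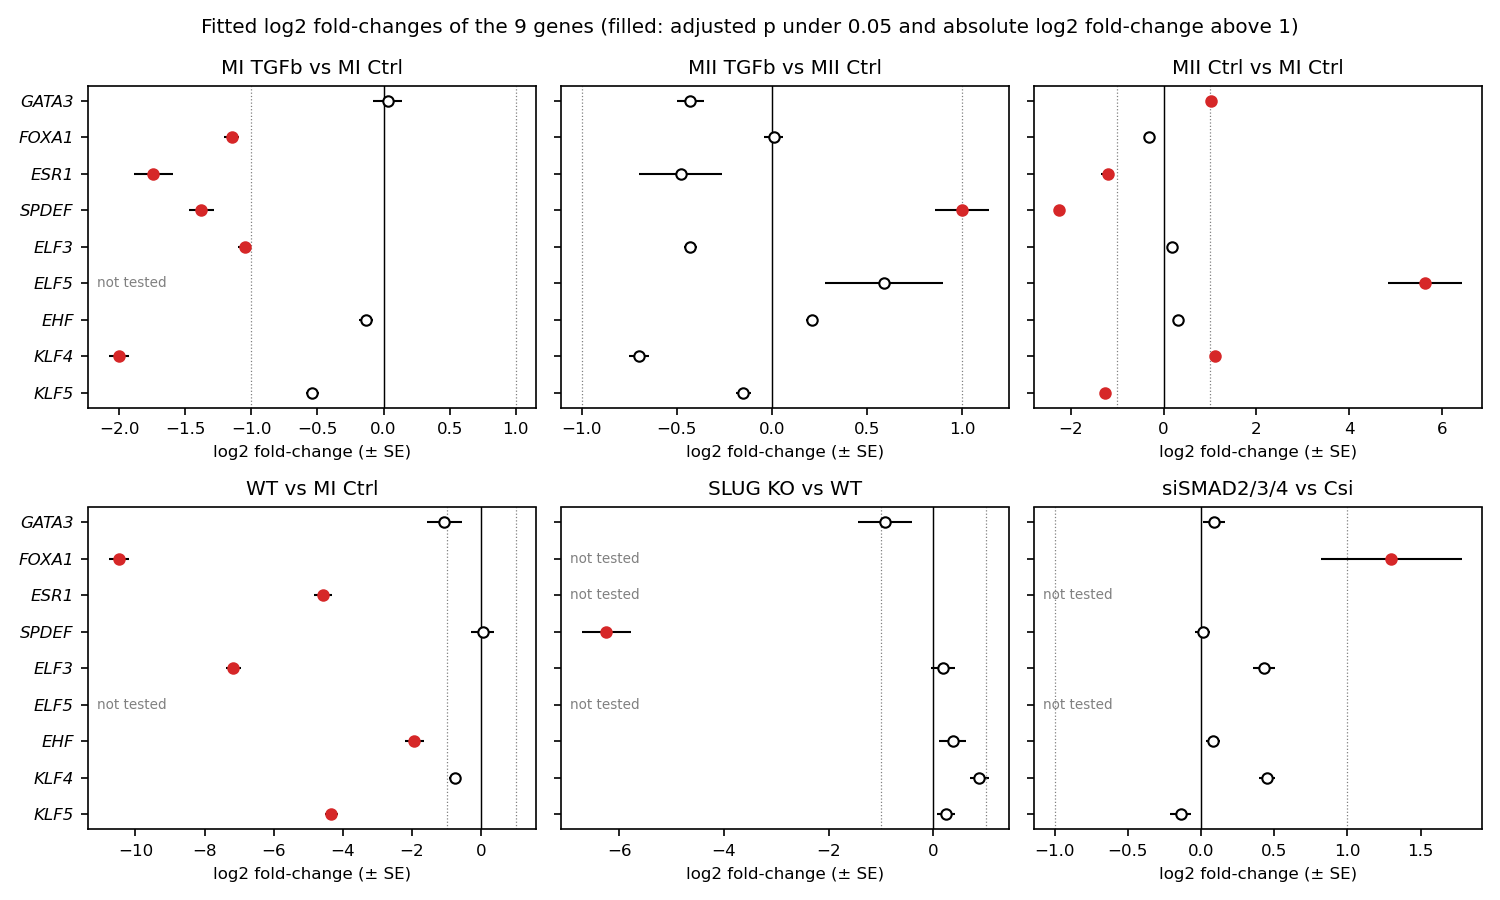
Log2 fold-change ± SE of each gene in the 6 comparisons of 2 groups (axes differ between panels). Filled points were called, dotted lines mark an absolute log2 fold-change of 1, and 5 genes lay left of the line in MI TGFβ, 0 in MII TGFβ, and *SPDEF* alone did in SLUG KO.

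TGFβ in MII-spheres addressed the response after HRAS transformation. *SPDEF* rose, and 0 of the 9 genes were called lower. *KLF4*, *ELF3*, *GATA3* and *ESR1* had lower means with TGFβ, *FOXA1* did not separate, and *EHF* was slightly higher. So 1 of the 9 was called higher, and among all 16396 genes tested 3.12% were called higher and 7.50% lower. The median log2 fold-change was -0.15 for the 9 genes and -0.02 for all genes.

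*SPDEF* was 4.03, 4.66 and 5.45 CPM in MII Ctrl and 8.52, 9.78 and 11.5 CPM in MII TGFβ, 2.01-fold higher. All stimulated libraries lay above all unstimulated ones. The log2 fold-change of 1.00 ± 0.14 sat at the threshold: leaving out 1 library at a time gave 0.90 to 1.15, and the call was lost without MII Ctrl replicate 1 or 3 or MII TGFβ replicate 2. It was lost, too, when at least 10 counts were required in every library.

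*KLF4* was 86.9, 88.2 and 95.1 CPM without and 56.4, 56.6 and 57.5 CPM with TGFβ, without overlap, and its log2 fold-change of -0.70 ± 0.052 stayed within the fold threshold. *KLF5* was 223, 225 and 230 CPM without and 204, 207 and 214 CPM with TGFβ (-0.15 ± 0.038). The *KLF5* groups were also separate, by a small margin. *FOXA1* was 78.7, 81.3 and 83.9 CPM without and 82.1, 82.3 and 87.3 CPM with TGFβ, which is 0.01 ± 0.050 on the log2 scale. *ESR1* was 2.77, 2.78 and 3.98 CPM without and 2.31, 2.40 and 2.50 CPM with TGFβ (-0.48 ± 0.22). *GATA3* was 29.0, 30.4 and 31.2 CPM without and 22.7, 23.3 and 23.3 CPM with TGFβ (-0.43 ± 0.071). Among the 3 luminal factors, only *FOXA1* overlapped between these groups. *ELF3* went from 761 to 785 CPM without to 570 to 615 CPM with TGFβ (-0.43 ± 0.034), and *EHF* from 746 to 782 CPM to 876 to 927 CPM (0.21 ± 0.033). *ELF5*, the alveolar factor, was 0.661, 1.14 and 1.22 CPM without and 1.36, 1.53 and 1.89 CPM with TGFβ (0.59 ± 0.31, not called), on 10 to 34 counts.

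Of the companion lists in MII-spheres, the estrogen-responsive genes had 3 of 6 tested called higher and 0 lower. *AGR2*, a secretory protein disulfide isomerase, rose from 45.0 ± 3.12 to 140 ± 4.56 CPM (log2 fold-change 1.61 ± 0.051, adjusted p = 3.56e-32). *PGR*, the progesterone receptor, was counted 3 times over the 3 unstimulated and 60 times over the 3 stimulated libraries, a ratio of 28.3 with an exact 95% interval of 9.24 to 141 for counting error. *MYB*, a proto-oncogene of luminal cells, rose as well (1.13 ± 0.22, adjusted p = 1.24e-05), a call lost without MII Ctrl replicate 2 (0.76). The same *PGR* and *MYB* were the 2 genes called among 12 other luminal factors. Of 8 basal factors tested, the p53 relative *TP63* (2.11 ± 0.31, adjusted p = 6.15e-08) and *BCL11B* (2.07 ± 0.36, adjusted p = 1.98e-06) rose and *RUNX2* fell (2.82-fold, adjusted p = 0.000585). These basal factors were low, with means of 2.65 CPM or less in both MII groups, while *TP63* was 51.2 ± 2.28 CPM in MI Ctrl. None of 13 ETS, 11 KLF and 5 GATA, FOXA and estrogen receptor relatives tested was called, nor was any of 7 other epithelial-state factors. Of 14 luminal surface genes *PROM1* alone was called (1.36 ± 0.19, adjusted p = 1.97e-08). Here 5 of 8 epithelial markers rose, led by *KRT6A* (4.18 ± 0.12, adjusted p = 3.99e-34), and the sum of the list went from 1550 to 1599 up to 3087 to 3249 CPM. Of 6 mesenchymal markers 2 rose, *VIM* (1.51 ± 0.18, adjusted p = 2.16e-10) and *CDH2* (1.21 ± 0.15, adjusted p = 4.63e-10), and 0 of 2 stromal, immune and endothelial markers were called. Their part in the values of the 9 genes was not tested.

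The difference between the 2 responses was tested over the 12 sphere libraries as the interaction of line and TGFβ. It uses the same libraries as both comparisons above. *FOXA1*, *ESR1*, *SPDEF* and *KLF4* were called, all with a higher value in MII than in MI, so 4 of the 9 were called higher and 0 lower. Over all 18591 genes tested, 3.75% were called higher and 2.09% lower. The difference was largest for *SPDEF*, at 2.40 ± 0.17 on the log2 scale, since it fell in MI and rose in MII. It was 1.31 ± 0.093 for *KLF4*, 1.27 ± 0.26 for *ESR1* and 1.17 ± 0.076 for *FOXA1*. *KLF4* had the lower mean with TGFβ in both lines, and *FOXA1* fell in MI and was 0.01 ± 0.050 in MII. With all 18 libraries of the batch in 1 fit the *ESR1* difference was no longer called. The genes not called were *ELF3* (0.63 ± 0.059), *KLF5* (0.40 ± 0.060), *EHF* (0.35 ± 0.063), *GATA3* (-0.44 ± 0.13) and *ELF5* (-1.54 ± 1.5).

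**Figure D3:**
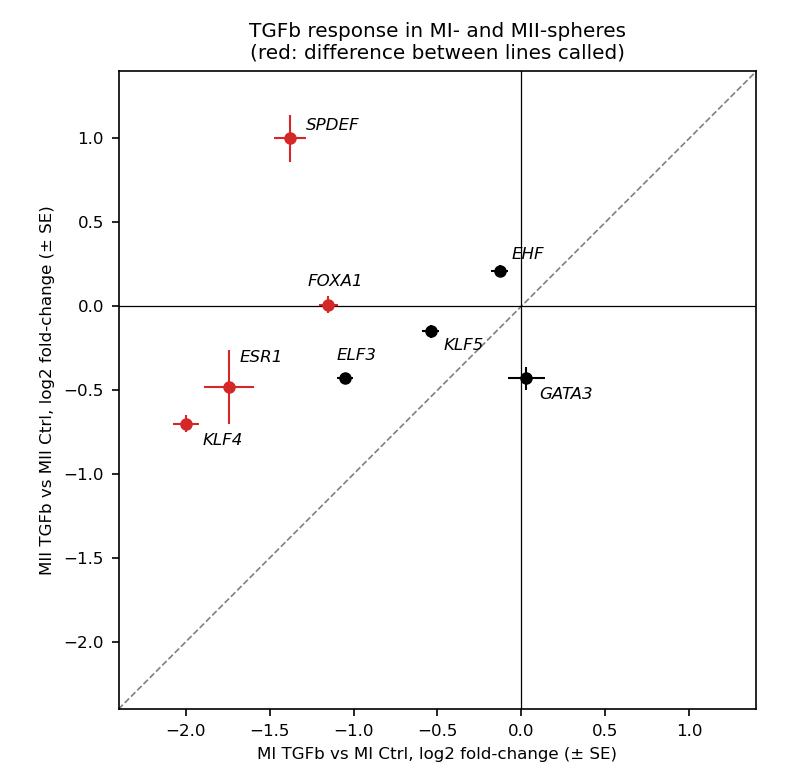
Log2 fold-change ± SE with TGFβ in MI- (x axis) and MII-spheres (y axis) for the 8 genes tested in both, with the line of equal response dashed and the genes whose difference was called in red. *SPDEF* lies in the quadrant of a fall in MI (-1.38) and a rise in MII (1.00), *FOXA1* near 0 in MII, and *GATA3* alone lies below the dashed line.

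Among the companion genes, *XBP1* differed in the same direction (1.85 ± 0.068, adjusted p = 1.26e-22), and so did *AGR2* (2.48 ± 0.080, adjusted p = 1.42e-24). Both are secretory genes of luminal cells. The estrogen-responsive list had 4 of 8 tested genes called with the higher value in MII, the other luminal factors 3 of 12, and the basal factors 2 of 8, *TP63* (1.44 ± 0.24, adjusted p = 1.20e-05) and *BCL11B* (1.11 ± 0.34, adjusted p = 0.0138). No epithelial-state factor of 7 and no ETS relative of 13 was called, and of 11 KLF relatives *KLF2* was (1.01 ± 0.35, adjusted p = 0.0324). Without 1 library the *KLF2* value ranged from 0.77 to 1.17 and its call was lost in 6 of 12 such fits (MI Ctrl 1 or 3, MI TGFβ 2, MII Ctrl 1, MII TGFβ 1 or 3), and *BCL11B* ranged from 0.78 to 1.61 and was lost in 3 (MI Ctrl 1, MII Ctrl 3, MII TGFβ 2). Both calls were also lost in the 18-library fit. That of *KLF2* was lost, too, in DESeq2, with median-of-ratios size factors and without the low-count filter, so it held in 8 of 18 alternatives. None of 6 GATA, FOXA and estrogen receptor relatives and 1 of 14 luminal surface genes, *PROM1*, was called (2.78). The *PROM1* call was lost in the 18-library fit and without MI Ctrl replicate 1 or MI TGFβ replicate 2, and its value ranged from 2.18 (without the latter) to 6.13 (without MI TGFβ replicate 3). *PGR*, counted in both the estrogen-responsive and the luminal factor list, lost its call (4.38) in DESeq2, in the 18-library fit and without MI Ctrl replicate 3 (3.07) or MII Ctrl replicate 2 (4.07). Of 8 epithelial markers 4 had the higher value in MII, of 7 mesenchymal markers 2 had the lower value, led in level by *FN1* (-2.06 ± 0.078, adjusted p = 2.31e-22), the other being *SPARC* (-2.20), whose call was lost without MI Ctrl 2, MII Ctrl 1, MII Ctrl 2 or MII TGFβ 2, and of 3 stromal, immune and endothelial markers *CDH5* had the higher (2.81 ± 0.19, adjusted p = 1.08e-14). List medians of the 6 factor lists were -0.09 to 0.42, against 0.00 over all genes and 0.63 over the 9 genes.

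Unstimulated MII- against MI-spheres addressed what differs between the lines before TGFβ. *GATA3*, *KLF4* and *ELF5* were higher in MII, and *ESR1*, *SPDEF* and *KLF5* were lower, so 3 of the 9 were called in each direction. Over all 17862 genes tested, 12.5% were called higher and 7.62% lower. *FOXA1*, *ELF3* and *EHF* differed by less than the fold threshold, although no gene of the 9 overlapped between these groups. The share of all genes without overlap was not counted, and 11474 of the 17862 genes tested had an adjusted p under 0.05, so separation was not particular to the 9. The MI Ctrl libraries also serve the TGFβ comparison of MI, so the values are not independent of it.

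*GATA3* was 14.8, 14.9 and 15.3 CPM in MI Ctrl and 29.0, 30.4 and 31.2 CPM in MII Ctrl, a log2 fold-change of 1.03 ± 0.072 that lost its call without the low-count filter (0.99). *ESR1* was 6.85 to 8.18 CPM in MI Ctrl and 2.77 to 3.98 CPM in MII Ctrl (-1.21 ± 0.15), and *FOXA1* was 100.8 to 103.5 and 78.7 to 83.9 CPM (-0.31 ± 0.045). Within the luminal triad, then, one gene was higher and the others lower in the transformed line. *SPDEF* was 4.77-fold lower in MII, with 22.1 to 24.5 against 4.03 to 5.45 CPM (-2.25 ± 0.10). *ELF5* was counted once over the 3 MI Ctrl and 66 times over the 3 MII Ctrl libraries, a ratio of 69.1 with an exact 95% interval of 12 to 2768 for counting error. *ELF3* (0.18 ± 0.033) and *EHF* (0.30 ± 0.034) were the 2 ETS factors within the threshold. *KLF4* was 41.5 to 43.5 CPM in MI Ctrl and 86.9 to 95.1 CPM in MII Ctrl, 2.15-fold higher (1.10 ± 0.052). *KLF5* was 538 to 558 and 223 to 230 CPM, 2.41-fold lower (-1.27 ± 0.035). The KLF factors thus differed in opposite directions between the lines.

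Around them, the lines differed in the genes of both luminal and basal programs. Of 11 other luminal factors 3 were higher and 1 lower in MII. The cofactor gene *LMO4* was higher, at 96.8 ± 2.55 against 29.3 ± 0.919 CPM (1.73 ± 0.054, adjusted p = 2.83e-34). *MYB* was lower (-2.34 ± 0.16, adjusted p = 6.87e-19). Of 8 basal factors 4 were lower, among them *TP63* (0.620 ± 0.136 against 51.2 ± 2.28 CPM, -6.42 ± 0.12, adjusted p = 4.99e-44), and 2 were higher, *SOX9* (2.27 ± 0.052, adjusted p = 1.16e-40) and *FOXC1* (1.07 ± 0.047, adjusted p = 4.36e-27). Of 7 epithelial-state factors 3 were lower, including *GRHL3*, a factor of epidermal differentiation (-2.89 ± 0.091, adjusted p = 4.78e-34), and *ZNF750* was higher (1.17 ± 0.089, adjusted p = 3.59e-17). Of 7 estrogen-responsive genes 4 were lower and 0 higher, with a list median of -1.73 against 0.02 over all genes. ETS relatives had 3 of 13 higher, led by the RAS-pathway target *ETV4* (2.45 ± 0.071, adjusted p = 1.87e-35). KLF relatives had 1 of 11 in each direction, *KLF11* (1.13 ± 0.098, adjusted p = 4.73e-15) and *KLF12* (-1.0 ± 0.079, adjusted p = 1.44e-16), the latter lost without MII Ctrl replicate 1 or 3. Of 5 GATA, FOXA and estrogen receptor relatives, *ESRRG* was higher and *GATA2* lower, each near 2 CPM or below. Of 14 luminal surface genes 4 were higher and 1, *MUC1*, was lower (-1.38 ± 0.080, adjusted p = 5.60e-22). Of 8 epithelial markers 2 were higher in MII and 4 lower, of 6 mesenchymal ones 3 and 2, and of 3 stromal, immune and endothelial ones 1 and 2. The higher one was *PECAM1* (3.43 ± 0.065, adjusted p = 1.97e-44). *DCN* was counted 765 times over MI Ctrl and 2 times over MII Ctrl libraries, and *CDH5* (-1.06) lost its call without MII Ctrl replicate 2. Their part in the values of the 9 genes was not tested.

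**Figure D4:**
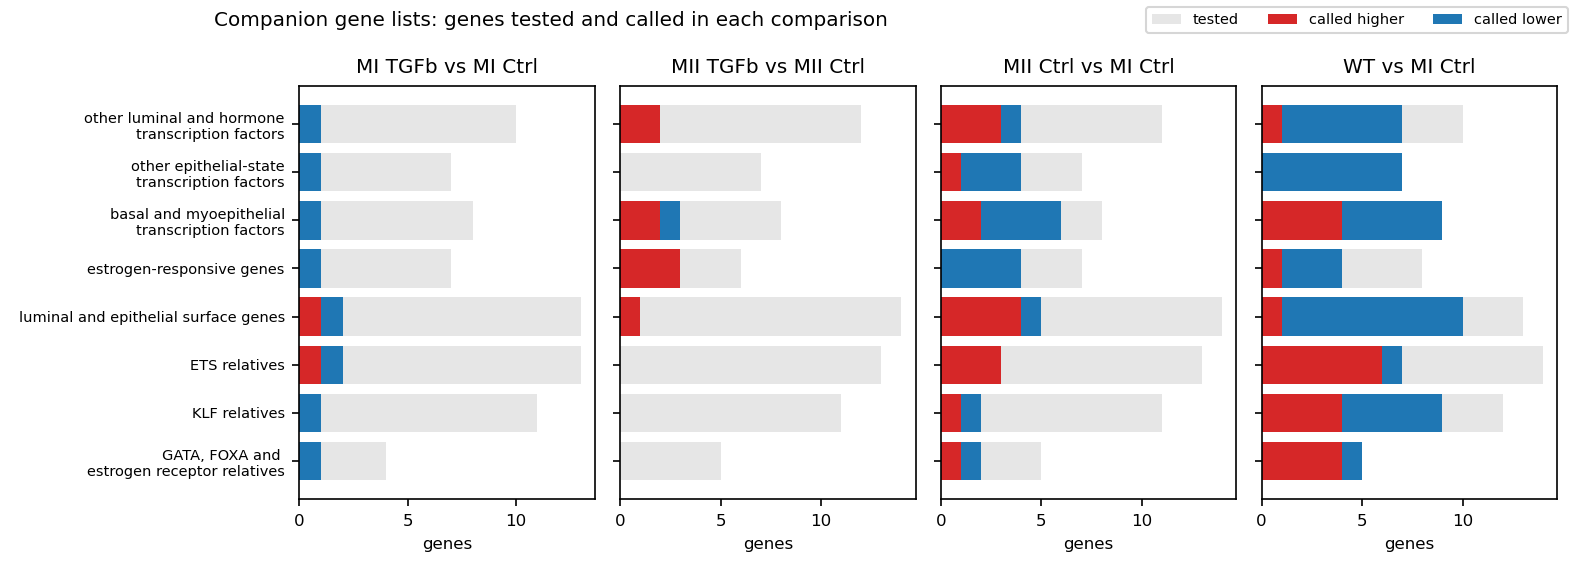
Number of genes tested (grey), called higher (red) and called lower (blue) in 8 companion lists, for 4 comparisons named as first against second group. Calls were few with TGFβ in MI, absent from 4 lists in MII, and covered all 7 epithelial-state factors tested, all lower, in WT against MI Ctrl.

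WT MDA-MB-231 against MI Ctrl set the invasive cancer line against the untransformed one. Line, monolayer or sphere culture, and medium cannot be told apart in it. *FOXA1*, *ESR1*, *ELF3*, *EHF* and *KLF5* were lower, *GATA3*, *SPDEF* and *KLF4* were not called, and *ELF5* was not tested. So 5 of the 9 were called lower and 0 higher, while 21.1% of all 18732 genes tested were called lower and 23.4% higher. Without WT replicate 2, *GATA3* was called too, which made 6 lower.

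*FOXA1* was counted 1, 2 and 2 times in the WT libraries against 6721 times over MI Ctrl, a ratio of 1542 with an exact 95% interval of 660 to 4749 for counting error. Each WT library was thus below the floor of 3 counts. *ESR1* was 0.282, 0.331 and 0.338 CPM in WT, from 7 to 9 counts, and its log2 fold-change was -4.58 ± 0.26. *ELF3* was 4.01, 5.19 and 5.22 CPM against 687 to 696 (-7.17 ± 0.22), 144-fold lower. *EHF* was 103.2 CPM in WT replicate 2 and 195 and 201 CPM in the others, against 618 to 639 (-1.93 ± 0.28, and -1.71 without that library). *KLF5* was 25.0, 27.4 and 29.5 CPM against 538 to 558, 20.2-fold lower (-4.33 ± 0.18). These 5 genes were separated in every pair of libraries. The share of all genes so separated was not counted, and 10107 of the 18732 genes tested had an adjusted p under 0.05. *SPDEF* was 15.6 and 18.5 CPM in WT replicates 1 and 3 and 38.2 in replicate 2, on both sides of MI Ctrl (0.04 ± 0.34, and -0.48 without replicate 2). *GATA3* was 3.75 and 3.90 CPM in replicates 1 and 3 and 13.9 in replicate 2 (-1.07 ± 0.51, and -2.0 without it). *KLF4* was 21.2, 25.7 and 29.0 CPM (-0.75 ± 0.18). *GATA3* and *KLF4* were below MI Ctrl in each WT library, and *SPDEF* overlapped.

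The companion lists held many calls in this comparison. All 7 epithelial-state factors tested were lower, with *GRHL2* at 6 counts over WT and 8367 over MI Ctrl. Of 13 luminal surface genes 9 were lower, such as *CDH1*, E-cadherin (1.23 ± 0.425 against 527 CPM, -8.74 ± 0.34, adjusted p = 4.53e-06), and 1 was higher, *KRT19* (6.74 ± 0.37, adjusted p = 1.21e-05). Of 10 other luminal factors 6 were lower and 1 higher, and *STAT5A*, the higher one (1.02 ± 0.23, adjusted p = 0.00795), lost its call without WT replicate 2 (0.75) and without MI Ctrl replicate 1 or 3 (0.96 each). The *STAT5A* call was also lost in DESeq2, without the low-count filter and with the replicate block. Among ETS relatives, 6 of 14 were higher and 1 lower: *ETS1*, a factor of mesenchymal and lymphoid cells, was 160 ± 9.63 against 8.64 ± 0.973 CPM (4.20 ± 0.18, adjusted p = 6.12e-06) and *ELF1* was lower (-1.99 ± 0.21, adjusted p = 0.000186). Of 5 GATA, FOXA and estrogen receptor relatives 4 were higher and 1 lower. *FOXA2* was counted 1102 times over WT and 0 times over MI Ctrl libraries, at least 106.2-fold higher taking the floor of 3 counts per library, and *GATA6* was 19.9 ± 4.54 against 4.39 ± 0.331 CPM (2.17 ± 0.23, adjusted p = 0.000209). Basal factors had 4 higher and 5 lower of 9 tested, KLF relatives 4 higher and 5 lower of 12, and estrogen-responsive genes 1 higher and 3 lower of 8. The markers given above moved with this comparison as well: 7 of 8 epithelial markers were lower 5 of 7 mesenchymal ones higher, and 2 higher and 3 lower of 5 stromal, immune and endothelial ones, and their part was not tested.

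SLUG KO against WT addressed which genes depend on SLUG in MDA-MB-231. *SPDEF* was nearly absent from the SLUG KO libraries, and it was the 1 gene of the 9 that was called, with 0 called higher. Over all 17428 genes tested, 1.80% were called lower and 1.25% higher. *FOXA1*, *ESR1* and *ELF5* were too low to be tested, and *GATA3*, *ELF3*, *EHF* and *KLF5* were not called. Whether the values belong to the edit or to the clones that were expanded cannot be told apart.

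*SPDEF* was counted 7, 7 and 8 times in the SLUG KO libraries (0.317, 0.318 and 0.32 CPM) and 417, 460 and 923 times in WT (15.6, 18.5 and 38.2 CPM). Every SLUG KO library lay far below every WT library. The log2 fold-change was -6.25 ± 0.47, a 76.1-fold difference, and -5.73 without WT replicate 2, the smallest value of any left-out library. *KLF4* was 45.6, 48.0 and 48.1 CPM in SLUG KO and 21.2, 25.7 and 29.0 CPM in WT, with no overlap. Its log2 fold-change was 0.88 ± 0.18 and not called, and it was 1.00 and called without WT replicate 2. *GATA3* was 3.62, 3.83 and 4.09 CPM in SLUG KO, beside WT replicates 1 and 3 at 3.75 and 3.90, and the value of -0.92 ± 0.52 came to 0.00 without WT replicate 2. *EHF* was 209, 222 and 223 CPM against 103.2, 195 and 201 (0.37 ± 0.26, and 0.13 without WT replicate 2), *KLF5* 28.6 to 35.3 against 25.0 to 29.5 CPM (0.24 ± 0.17), and *ELF3* 4.57 to 6.55 against 4.01 to 5.22 CPM (0.18 ± 0.23). *EHF* was separated between the groups, and *KLF5* and *ELF3* overlapped. *ESR1* was counted 3 times over SLUG KO and 24 times over WT libraries, a ratio of 7.31 with an exact 95% interval of 2.22 to 37.9 for counting error.

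Of the companion lists in SLUG KO, the estrogen-responsive genes had 3 of 7 tested lower and 0 higher. *AGR2* was counted once over SLUG KO and 550 times over WT libraries, and *TFF3*, a secreted mucosal peptide, 2 and 160 times. The *TFF3* call was lost without SLUG KO replicate 2 or 3. *FOXA2* fell from 14.7 ± 5.44 to 0.604 ± 0.0903 CPM (-4.62 ± 0.35, adjusted p = 0.00182) and was the 1 of 5 GATA, FOXA and estrogen receptor relatives called. All 3 genes were counted at least 31 times in each WT library, and *AGR2* and *TFF3* were below the floor in each SLUG KO library. *CD24*, a luminal surface gene, was the 1 of 14 called (-4.60 ± 0.45, adjusted p = 0.00365). Of 14 ETS relatives *FLI1* rose (1.95 ± 0.28, adjusted p = 0.0128), and of 12 KLF relatives *KLF8* rose (2.11 ± 0.27, adjusted p = 0.00913) and *KLF7* fell (-1.12 ± 0.23, adjusted p = 0.0475). Of 9 other luminal factors *TFAP2C* fell (-1.03 ± 0.20, adjusted p = 0.0421). The calls of *KLF7* and *TFAP2C* were lost in each of the 6 fits that left out 1 library (-1.23 to -0.96 and -1.06 to -0.96), and those of *FLI1* and *KLF8* without WT replicate 1 or any 1 SLUG KO library, at 1.80 or more and 2.0 or more. None of 5 basal factors, 1 epithelial-state factor and 5 epithelial markers tested was called, 1 of 3 stromal, immune and endothelial markers fell (*PECAM1*, -1.44 ± 0.22, adjusted p = 0.0174, a call lost with the replicate block, without WT replicate 1 and without any 1 SLUG KO library, at -1.52 to -1.37 over the fits without 1 library), and 1 of 7 mesenchymal markers fell, *FN1* (-3.17 ± 0.23, adjusted p = 0.00182). The median over the 6 genes tested was 0.21 and over all genes -0.05.

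**Figure D5:**
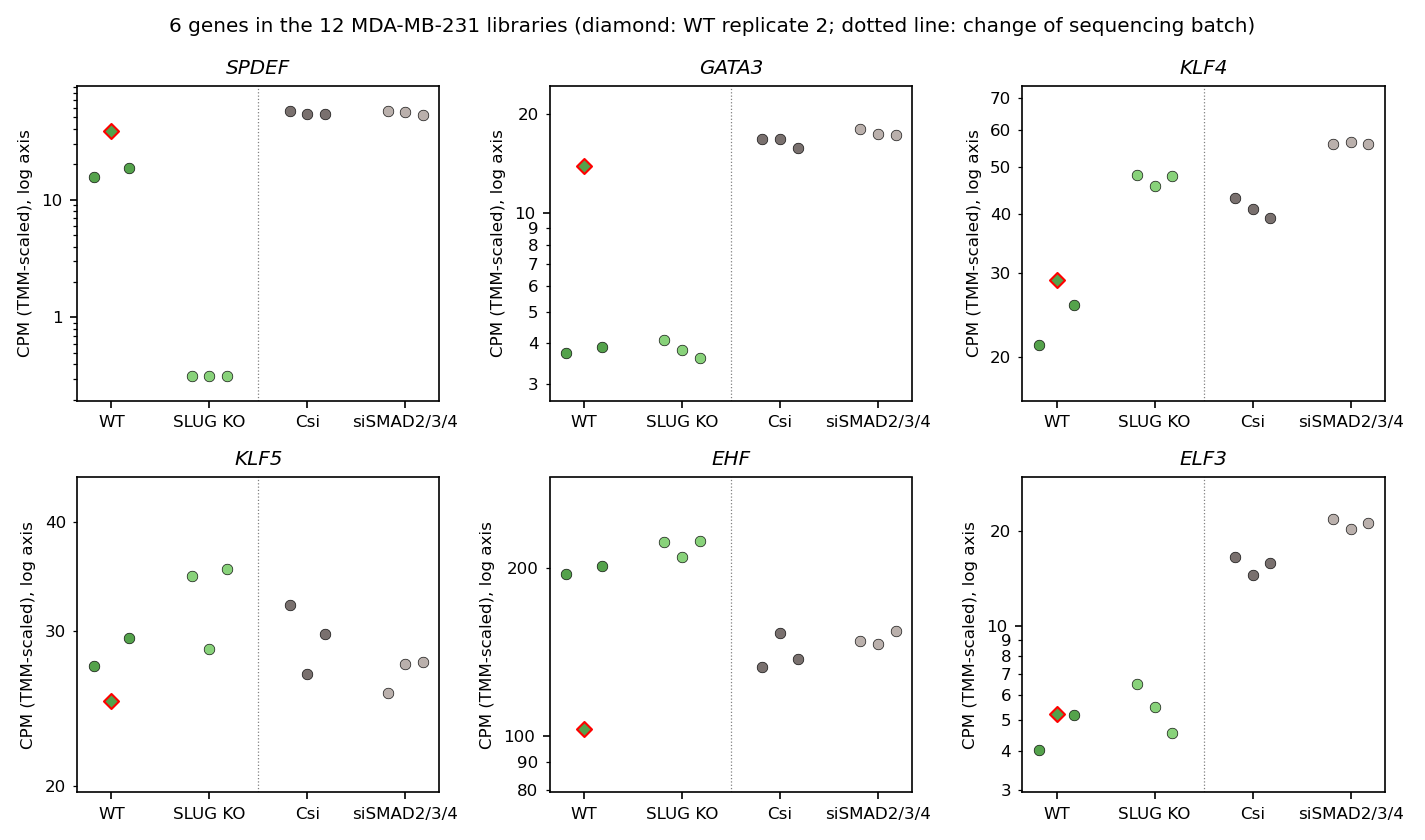
CPM on log axes of 6 genes in the 12 MDA-MB-231 libraries, with the diamond for WT replicate 2 and the dotted line between the sequencing batches. *SPDEF* in SLUG KO (0.317 to 0.32 CPM) lies far below all others, *KLF4* is higher in SLUG KO than WT and in siSMAD2/3/4 than Csi, and WT replicate 2 is apart for *SPDEF*, *GATA3* and *EHF*.

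Depletion of the SMAD factors addressed which genes depend on them in MDA-MB-231. Of the 7 genes tested, *FOXA1* alone was called, higher at a very low level, and 0 were called lower. Over all 17696 genes tested, 0.978% were called higher and 0.927% lower. *KLF4*, *ELF3* and *GATA3* were separated between the groups within the fold threshold. *SPDEF*, *EHF* and *KLF5* overlapped, and *ESR1* and *ELF5* were too low to be tested.

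*FOXA1* was counted 5, 7 and 8 times in Csi and 14, 16 and 19 times in siSMAD2/3/4 libraries (0.136 to 0.235 and 0.408 to 0.588 CPM), with a log2 fold-change of 1.30 ± 0.48. The call was lost in DESeq2, without the low-count filter, with flow cell as a term, and in 5 of the 6 fits that left out a library (all but that without Csi replicate 1), with values of 1.09 to 1.45. *KLF4* was 39.1, 40.9 and 43.2 CPM in Csi and 55.9, 56.1 and 56.5 CPM in siSMAD2/3/4 (0.45 ± 0.054). *ELF3* was 14.5, 15.9 and 16.6 against 20.4, 21.2 and 21.8 CPM (0.43 ± 0.076). In both genes each depleted library was above each control library. *SPDEF* was 53.4, 53.8 and 56.7 CPM in Csi and 52.5, 55.5 and 57.0 CPM in siSMAD2/3/4 (0.01 ± 0.051). *GATA3* was 15.8, 16.8 and 16.8 against 17.3, 17.4 and 18 CPM (0.09 ± 0.075), *EHF* 133 to 153 against 146 to 154 CPM (0.08 ± 0.046), and *KLF5* 26.8 to 32.1 against 25.5 to 27.7 CPM (-0.14 ± 0.071). These 4 differences were each below 0.2 on the log2 scale. Of the 8 factor and surface gene lists, 1 gene was called, *GRHL3*, a factor of epidermal differentiation (2.83-fold higher, adjusted p = 0.00377, at a mean of 0.795 ± 0.205 CPM with siRNA against SMADs). Its call was lost with flow cell as a term (1.15). Of the marker lists, 1 of 6 epithelial markers was higher, *KRT14* (1.29 ± 0.41, adjusted p = 0.0121, lost without Csi replicate 3 or siSMAD2/3/4 replicate 2 or 3), and 0 of 7 mesenchymal and 0 of 4 stromal, immune and endothelial ones were called. Replicates 1 and 2 of siSMAD2/3/4 ran on another flow cell than the other 4 libraries, according to the run names.

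Unedited MDA-MB-231 cells were sequenced in both batches, and the values of WT and Csi are given side by side because batch, transfection and culture cannot be told apart. *SPDEF* was 24.1 ± 12.3 CPM in WT and 54.6 ± 1.77 in Csi, *GATA3* 7.17 ± 5.80 and 16.4 ± 0.596, and *ELF3* 4.81 ± 0.686 and 15.7 ± 1.06. *KLF4* was 25.3 ± 3.94 and 41.1 ± 2.03 CPM. In contrast, *KLF5* was 27.3 ± 2.24 and 29.6 ± 2.67 CPM, and *EHF* 166 ± 54.7 and 141 ± 10.6. For *GATA3*, *SPDEF* and *KLF4*, WT replicate 2 was nearer to the Csi libraries than WT replicates 1 and 3 were. For *EHF*, WT replicate 2 (103.2 CPM) lay below the Csi libraries (133 to 153 CPM), and WT replicates 1 and 3 (195 and 201 CPM) lay above them.

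Across the 18 libraries of the larger batch, log2 CPM of the 9 genes were compared pairwise by Pearson's r, as a description over libraries that share lines, replicates and depth. *FOXA1* and *ELF3* had the highest r of the 36 pairs (0.996), followed by *ELF3* with *EHF* (0.955), and *FOXA1* with *KLF5* (0.949). All of these genes had lower means in WT and SLUG KO than in every sphere group, a difference that such r values include. Within the spheres, *FOXA1* and *KLF5* were highest in MI Ctrl, *ELF3* in MII Ctrl and *EHF* in MII TGFβ. In MII Ctrl against MI Ctrl, *FOXA1* was 1.24-fold and *KLF5* 2.41-fold lower. Whether the pairs vary together within the spheres was not tested. *KLF4* had r of -0.275 to 0.519 with the other 8 genes, and *SPDEF* -0.275 to 0.650. These 2 genes had the lowest maximum r of the 9. Among 14270 other genes, the most like *FOXA1* were *PCDHA12* and *FAAH* (r of 0.997 for each), the most like *KLF5* were *S100A9* and *CALML5* (0.995 for each), and the most like *EHF* were *SMIM14* (0.995) and *MGST1* (0.993). *ELF3* was most like *GOLGA8A* and *EML2* (0.997 for each), *ESR1* like *ST6GAL1* (0.982) and *MYCL* (0.980), and *GATA3* like *PCDHGC3* (0.989) and *ZNF692* (0.982). *KLF4* was most like *NRP2* (0.953) and *CDK5RAP3* (0.947), *SPDEF* like *KIF1B* (0.928) and *MTOR* (0.908), and *ELF5* like *HEPH* (0.978) and *MGP* (0.974). With median-of-ratios scaling the second name changed for 4 genes, to *TMEM87A* for *EHF* (0.994), *EXOC6B* for *ESR1* (0.980), *B3GNT3* for *ELF3* (0.997) and *GPHN* for *SPDEF* (0.908), and the pair for *FOXA1* changed places.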

How the data were processed

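RNA-seq counts of 24 libraries were used, 3 in each of 8 groups taken from the sample labels. Reads were trimmed with Trimmomatic and aligned to GRCh38 with STAR by the authors, who counted fragments over the exons of GENCODE release 38 genes with featureCounts 2.0.0 at a mapping quality of at least 30, ignoring strand. The authors deposited these counts per library without normalization. Total counts of 14124688 to 38406952 per library, and 3 libraries per group, set the precision. Symbols came from GENCODE release 44 and covered 60463 of 60708 genes (99.6%).

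Levels are CPM after TMM scaling of all 24 libraries, or RPKM where genes are compared. Fits used edgeR 4.0.16 (R 4.3.3) on the libraries of the groups compared, with filterByExpr, TMM and quasi-likelihood tests. P-values were adjusted by Benjamini-Hochberg across the whole table. A call needs an adjusted p under 0.05 and an absolute log2 fold-change above 1. The SE is the fitted log2 fold-change divided by the square root of the F statistic. The scripts were tested on simulated counts with known changes. The 9 genes and the 11 companion lists (117 genes, 6 of them in 2 lists) were chosen with earlier results of these data known, so list counts and printed p-values are descriptions. *SNAI2*, the edited gene, was left out of the basal list in the SLUG KO comparison.

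Named are all 9 genes, the targeted genes and *HRAS*, per comparison and list up to 2 called genes per direction with the largest fold-change and no overlap between groups, and for each of the 9 the 2 genes with the most similar log2 CPM over 18 libraries. Not every gene so selected is named. Alternatives were DESeq2 1.42.0, median-of-ratios size factors, other count filters, a replicate block, all 18 libraries of a batch in 1 fit, flow cell as a term, and leaving out each library. Promoter windows are RefSeq sequences of GRCh38.p14.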

Additional observations from a re-analysis of the deposited data

Results flagged for a closer look

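The difference between the TGFβ responses of MII- and MI-spheres was called by edgeR's interaction term for 4 of the 9 genes, and these are given again because the 2 lines differed under the same treatment. The log2 difference, MII minus MI, was 2.40 for *SPDEF*, 1.31 for *KLF4*, 1.27 for *ESR1* and 1.17 for *FOXA1*. *SPDEF* moved in opposite directions in the 2 lines, with every stimulated library below every unstimulated one in MI and above it in MII. The genes had been chosen with these values in view.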

How the results depend on the processing

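Requiring at least 10 counts in every library gave 1340 called genes with TGFβ in MI, 947 in MII, 2146 between the lines, 4778 in WT against MI Ctrl, 244 in SLUG KO and 193 in siSMAD2/3/4, against 2285, 1741, 3586, 8343, 531 and 337, from fewer genes tested. Of the 9 genes it left 0 higher in MII TGFβ, 3 lower in WT against MI Ctrl, 0 lower in SLUG KO and 0 higher in siSMAD2/3/4, and of the companion genes 46, 6 and 0 in the last 3 comparisons. In those 3 comparisons this filter removed *FOXA1* and *ESR1* (WT), *SPDEF* (SLUG KO) and *FOXA1* (siSMAD2/3/4) from testing, because a group held fewer than 10 counts per library. *SPDEF* in SLUG KO was called in all 11 alternatives that tested it (-6.45 to -5.73). With all 18 libraries of a batch in 1 fit, the interaction had 680 called genes and 7 companion genes (1085 and 14), and SLUG KO had 1786, with 22 companion genes and 2 of the 9 lower (531, 12 and 1). SLUG KO against WT moved most: DESeq2 called 946 genes and the fit without a low-count filter 935. In siSMAD2/3/4, DESeq2, no low-count filter and flow cell as a term each called 0 of the 9 higher, and the last called 1 companion gene (2). Causes beyond this removal of genes from testing were not tested.

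Leaving out 1 library gave 0 to 1 of the 9 higher in MII TGFβ, 9 to 14 companion genes for the interaction, 0 to 1 of the 9 higher and 5 to 16 companion genes for SLUG KO, and 0 to 1 of the 9 and 1 to 3 companion genes for siSMAD2/3/4. SLUG KO against WT ranged from 133 called genes without SLUG KO replicate 1 to 1329 without WT replicate 2. No value that was called changed sign under any alternative run.

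Same-numbered libraries did not deviate together (r of -0.123 to 0.051), so the numbers give no pairing. With the replicate block SLUG KO against WT had 255 called genes, and WT against MI Ctrl had 6 of the 9 lower in place of 5. Low counts limit *ELF5*, and *FOXA1* and *ESR1* in MDA-MB-231.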
